A study of Mus musculus with 9 samples.

Results

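The S100 calcium-binding proteins were followed at the RNA level in mouse spinal cord after transection. The members are 10 genes, S100a1, S100a4, S100a6, S100a8, S100a9, S100a10, S100a11, S100a13, S100a16 and S100b, chosen by symbol out of 34745 genes in the deposited table. All 10 were in the table and all 10 passed the filter on low counts, as did 16494 genes in all. A further 7 S100 genes of the table are described separately below. The series sequenced poly-A RNA of spinal cord tissue in a study of complete transection at thoracic level T9, with 3 libraries at each of day 0, day 3 and day 21 after injury. The day 0 libraries are titled N, which the labels do not explain, and they were taken as day 0 because the design names that time. The labels give no strain, age, sex or genotype and do not say how much cord was sampled, and they name no sham group. Whether each library is a separate animal is not stated, so p-values rest on variation among these libraries that may be technical.

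S100 proteins are small proteins with a pair of EF-hand loops, the helix-loop-helix folds that hold a calcium ion. Most form dimers that open a hydrophobic face when calcium binds and then attach to a partner such as an annexin, myosin or a membrane channel. Several are also released from cells and act through RAGE (the product of Ager) or toll-like receptors. In the cord, S100b is the classical glial member, while S100a8 and S100a9 together form calprotectin, an abundant protein of neutrophils and monocytes. In bulk tissue, a change in the number of cells of a type and a change in RNA per cell cannot be told apart.

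Of the 10 members, 9 lie on chromosome 3 and S100b on chromosome 10. On build GRCm38, S100a1 spans chr3:90511034-90514392 on the minus strand and S100a13 spans chr3:90514435-90524581 on the plus strand. They are followed by S100a16 at chr3:90537254-90543151, S100a4 at chr3:90603771-90606045, S100a6 at chr3:90612882-90624181 and S100a8 at chr3:90668978-90670035, all on the plus strand. S100a9 closes the group at chr3:90692632-90695721 on the minus strand. S100a11 at chr3:93520488-93526287 and S100a10 at chr3:93555080-93564643, both on the plus strand, lie further along, beyond a stretch of other genes that spans 2745 kb. S100b spans chr10:76253853-76261159 on the plus strand. The deposited positions of all 10 were those of GENCODE M21.

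The promoters of the members that the results turn on are shown as the last 150 bases before the RefSeq start (GRCm38.p6), 5′ to 3′ on the strand of the gene. S100a11 and S100a4 had the highest fold changes at day 3, and S100a8 and S100a9 are the calprotectin pair. The deposited spans of S100a8 and S100a11 begin before these RefSeq starts, at 90668978 and 93520488. They therefore cover the end of the stretch shown, for S100a8 with its TATA box. Capitals mark AP-1 letters (TGANTCA) in S100a11, C/EBP letters (TTNNGNAA, either strand) in S100a8 and S100a9, and a TATA box (TATAAA) in S100a4 and S100a8.
S100a11, chr3:93520346-93520495, plus strand: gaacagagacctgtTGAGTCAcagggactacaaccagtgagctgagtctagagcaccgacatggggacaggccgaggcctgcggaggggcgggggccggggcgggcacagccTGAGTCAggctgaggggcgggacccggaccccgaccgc
S100a4, chr3:90603620-90603769, plus strand: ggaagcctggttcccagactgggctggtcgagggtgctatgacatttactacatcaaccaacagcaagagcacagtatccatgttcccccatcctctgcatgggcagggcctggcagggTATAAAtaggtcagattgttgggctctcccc
S100a8, chr3:90668921-90669070, plus strand: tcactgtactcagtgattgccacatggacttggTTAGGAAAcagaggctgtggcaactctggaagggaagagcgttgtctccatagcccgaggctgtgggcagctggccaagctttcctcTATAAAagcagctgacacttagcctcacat
S100a9, chr3:90695722-90695871, minus strand: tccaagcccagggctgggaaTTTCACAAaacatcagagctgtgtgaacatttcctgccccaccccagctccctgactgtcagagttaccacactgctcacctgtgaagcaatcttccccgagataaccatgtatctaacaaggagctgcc

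The AP-1 letters stood 136 and 38 bases before the start of S100a11. Among the 250 bases before each of 32851 RefSeq starts, 6.75% held such a match on either strand. Of 9 members with a promoter in the table, 2 held one (S100a11 and S100a16), and S100a10 had no entry. S100a16 has more than 1 start, and its match stood only before the downstream one, 90541146. Members are counted once over all their starts, while the shares count each start. C/EBP letters stood 117 bases before the start of S100a8 and 236 and 130 bases before that of S100a9. These were the 2 members with a match, against 36.8% of all promoters. TATAAA stood 31 bases before the start of S100a4 and 30 before that of S100a8, again 2 of 9 members, and was in 12.4% of all promoters on either strand. SP1 letters (GGGCGG) were found in 3 of 9 members and 32.7% of promoters, with 3 matches in S100a11. In S100a16 they again stood only before the downstream start. STAT letters (TTCNNNGAA) and ETS letters (CCGGAAG) were in no member and in 7.02% and 6.91% of promoters. A match describes letters and is not a measured binding site.

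S100a1 and S100a13 are transcribed away from each other, and their RefSeq starts bound 104 bases. These bases are shown on the plus strand, since both genes share them, with capitals for the 3 CG pairs. The deposited span of S100a1 reaches chr3:90514392 and so covers part of them.
Between S100a1 and S100a13, chr3:90514331-90514434, plus strand: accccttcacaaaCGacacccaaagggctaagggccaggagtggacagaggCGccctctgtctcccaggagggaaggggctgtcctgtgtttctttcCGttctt

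Total counts per library ran from 14299679 to 24022923. The 10 members together took 0.0876 to 0.112% of counts at day 0, 0.127 to 0.130% at day 3 and 0.0978 to 0.231% at day 21. A pair of libraries stood apart from the rest of their groups. Day 21 replicate 2 had a voom sample weight of 0.0583 and day 0 replicate 1 one of 0.354, where the other 7 had 1.02 to 2.03. In day 21 replicate 2 all 10 members were higher than the mean of replicates 1 and 3, by 1.73 times (S100a16) to 3.48 times (S100a8). The median difference of the 10 members was 1.16 in log2 CPM (counts scaled to the library total). Short genes were higher in this library as a class, with a median difference of 0.853 over 626 genes under 1000 bp and -0.256 over 9992 genes of 4000 bp or more. Day 0 replicate 1 was higher than its fellows in 9 of 10 members, with a median of 0.484, and lower in S100a11 by -0.447. Genes under 1000 bp were higher there by 0.331. The part of these 2 libraries in each result was not tested as a cause, and member results are given with and without day 21 replicate 2.

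**Figure D1:**
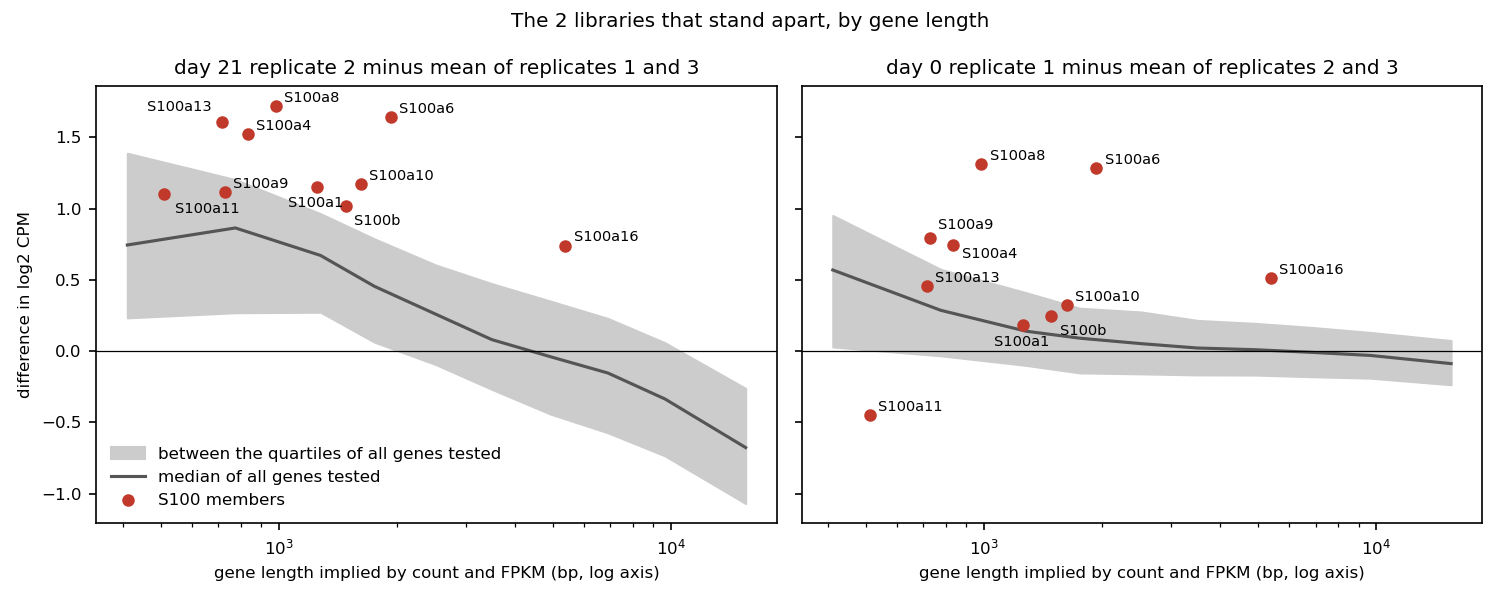
Difference in log2 CPM between the library that stands apart and the mean of the other 2 of its group (vertical) against gene length implied by count and FPKM in bp (horizontal, log axis), for day 21 replicate 2 (left) and day 0 replicate 1 (right). The line is the median and the band the range between the quartiles of all genes tested, and the points are the S100 members. All 10 points lie above 0 on the left, and 9 of 10 on the right, with S100a11 at -0.447.

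At day 3, 8 of the 10 members rose and none fell against day 0, at an edgeR adjusted p under 0.05. Over all genes tested, 24.8% rose and 19.5% fell. The risers were S100a11, S100a4, S100a6, S100a8, S100a10, S100a9, S100a13 and S100a16, and S100a1 and S100b were not called. At day 21, 6 members were higher than at day 0 and none lower, against 17.9% and 11.3% of all genes. They were S100a4, S100a8, S100a11, S100a6, S100a9 and S100a10. From day 3 to day 21 none rose and 1 fell, S100a11, where 11.7% of all genes rose and 16.1% fell. The median log2 fold change of the members was 1.86 at day 3 and 1.65 at day 21 against day 0, and -0.52 at day 21 against day 3. The same medians over all genes tested were 0.0081, 0.018 and 0.016. The first 2 comparisons share the day 0 libraries and the last 2 share the day 21 libraries.

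Without day 21 replicate 2 more members were called. At day 3 against day 0, 9 were higher (S100a1 added) and 1 was lower (S100b), where 32% of genes rose and 29.2% fell. The day 3 values of the 8 risers were then 0.65 (S100a16), 1.18 (S100a13), 1.77 (S100a9), 1.94 (S100a10), 2.73 (S100a8), 3.37 (S100a6), 4.52 (S100a4) and 4.74 (S100a11) in log2, and all 8 stayed called. At day 21 against day 0, 6 were higher and none lower, against 25.1% and 22.4% of genes. At day 21 against day 3, 1 was higher (S100b) and 7 were lower (S100a1, S100a4, S100a6, S100a10, S100a11, S100a13 and S100a16), against 23.5% and 25.7%.

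**Figure D2:**
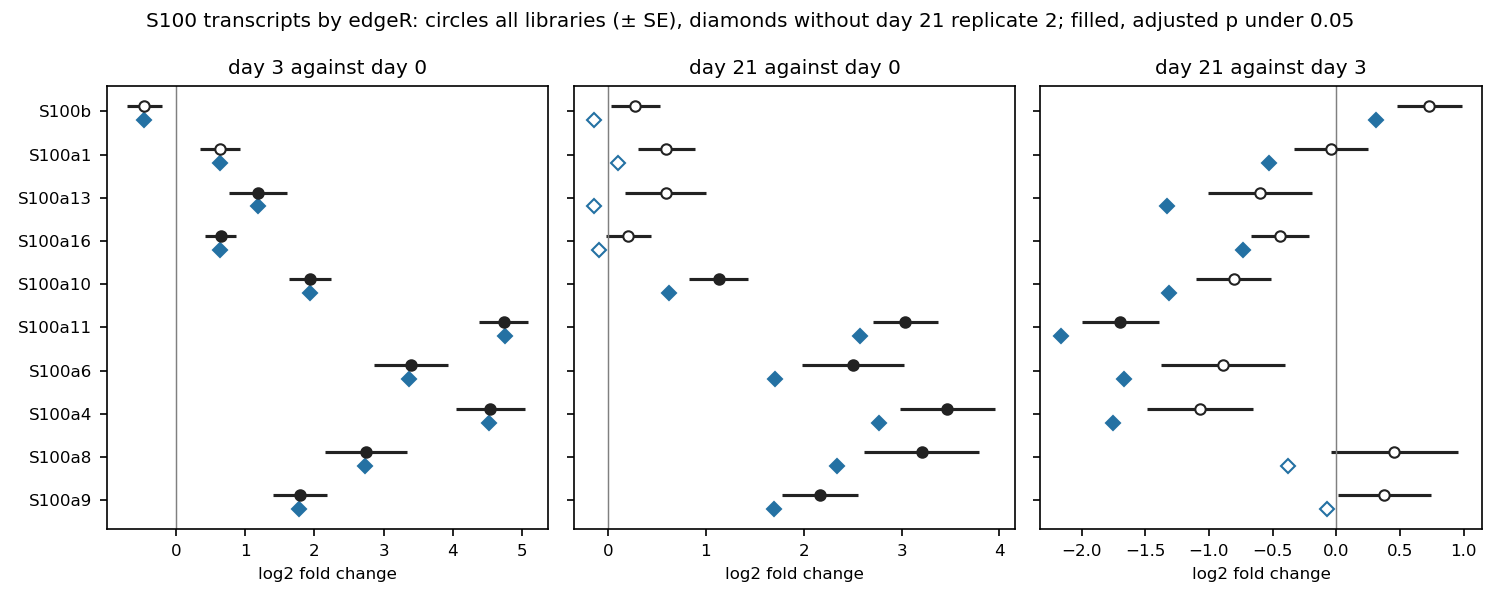
Log2 fold change of each S100 member (horizontal) in the 3 comparisons, one panel each. Circles are the edgeR values over all libraries with bars of 1 SE, diamonds the values without day 21 replicate 2, and filled symbols have an adjusted p under 0.05. In the right panel 1 circle is filled, S100a11 at -1.70, and 8 diamonds are filled, from S100a11 at -2.16 to S100b at 0.31.

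Levels between members are compared in FPKM, counts scaled to gene length and to the library total. S100b was the highest member at every day, and at day 0 it made up 72.5 to 74.7% of the summed FPKM of the 10. That share was 33.5 to 36.2% at day 3 and 57.8 to 62.3% at day 21. At day 0 the order of mean FPKM was S100b, S100a1, S100a13, S100a10, S100a16, S100a11, S100a6, S100a9, S100a4 and S100a8. The ranges over 3 libraries overlapped between the neighbours S100a16 and S100a11, S100a11 and S100a6, and S100a6 and S100a9. At day 3 S100a11 stood second, and the order went on with S100a1, S100a13, S100a10, S100a6, S100a4, S100a9, S100a16 and S100a8. S100a6 overlapped S100a4 and S100a9 overlapped S100a16. At day 21 S100a1 was again second, followed by S100a11, S100a13, S100a10, S100a6, S100a4, S100a9, S100a16 and S100a8. There each neighbour overlapped the next except S100b, which lay above S100a1.

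This order rests on the gene lengths behind the deposited FPKM. For S100b, S100a11 and S100a13 those lengths equal the exon bases of GENCODE M21, and for the other 7 they are longer, by 1.34 times (S100a10) to 3.33 times (S100a16, 5377 against 1617 bp). With the M21 lengths, S100a16 stood above S100a10 at day 0 (33.9 against 23.4). At day 3 S100a1 stood above S100a11 (267 against 227) and S100a10 above S100a13 (92.9 against 83.1). S100a16 also stood above S100a9 at day 3 (54.9 against 24.8), and at day 21 above S100a4 (42.8 against 40.4) and S100a9 (34). The edgeR changes between days are fitted to counts, so the choice of length in FPKM does not enter them. Libraries did differ by gene length, as given above for day 21 replicate 2. With a length correction, 4 members were called lower and 1 higher from day 3 to day 21, in place of 1 and 0. Of all genes, 18.9% and 14.5% were then called lower and higher.

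**Figure D3:**
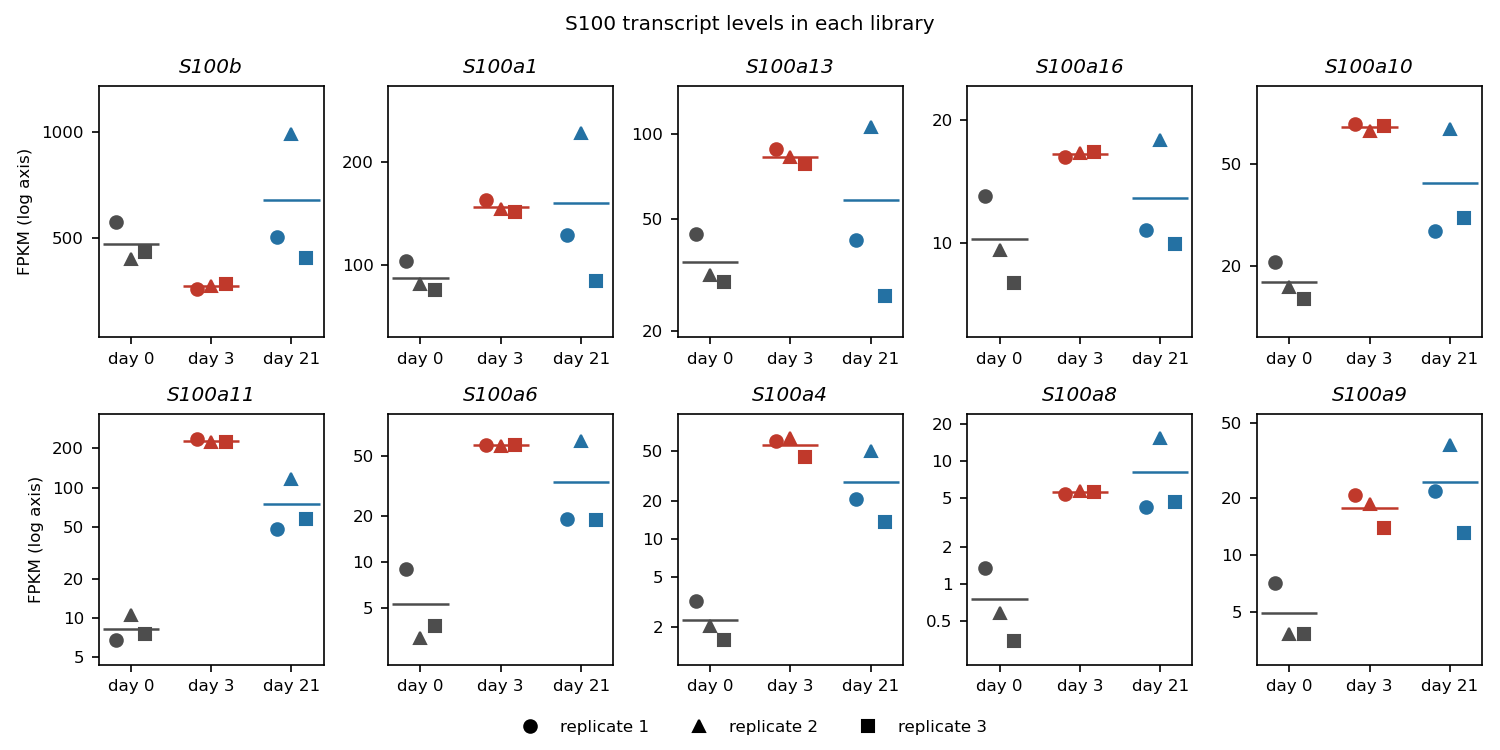
FPKM (log axis, a scale of its own in each panel) of the 10 S100 members at day 0, day 3 and day 21. Points are single libraries with a shape per replicate, and the lines are means of 3. Day 3 libraries lie close together, and the triangle of day 21 replicate 2 is the highest day 21 point in each panel, at 984 for S100b.

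S100b is the calcium sensor of astrocytes that is also made by oligodendrocyte lineage and Schwann cells, and when released it is read as a marker of glial damage. It measured 555, 437 and 456 FPKM at day 0, 358, 367 and 371 at day 3, and 502, 984 and 438 at day 21. All 3 day 3 libraries lay below all other libraries, while day 0 and day 21 overlapped. The log2 fold change at day 3 was -0.45 ± 0.25 (SE, edgeR adjusted p = 0.183), which was not called. At the same size, -0.45, it was called without day 21 replicate 2, at an adjusted p of 0.000751. At day 21 it was 0.28 ± 0.25 against day 0 (adjusted p = 0.45), and -0.14 without that library (adjusted p = 0.217). Against day 3, day 21 was at 0.73 ± 0.25 (adjusted p = 0.0615), and 0.31 without replicate 2 (adjusted p = 0.0171), and it was also called without replicate 3.

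The summed FPKM of 11 astrocyte markers was 1597 to 1642 at day 0, 1578 to 1610 at day 3 and 1626 to 1860 at day 21. Of these, 3 rose and 3 fell at day 3, and 1 rose at day 21. Over all genes tested, 24.8% rose and 19.5% fell at day 3, and 17.9% rose and 11.3% fell at day 21. Over 10 oligodendrocyte markers the sum was 2150 to 2311, 2015 to 2040 and 2062 to 2189. The sum of 11 Schwann cell markers went from 162 to 194 at day 0 to 650 to 666 at day 3 and 294 to 367 at day 21. At day 3 all 11 Schwann cell markers had risen, against 24.8% of all genes, where S100b was at its lowest.

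S100a1, known as a regulator of calcium handling in muscle and also made in neurons, measured 103, 87.8 and 84.4 FPKM at day 0. It stood at 155, 146 and 143 at day 3 and at 122, 242 and 90.1 at day 21. Every day 3 library was above every day 0 library, and the day 21 libraries spread over both. The log2 fold change at day 3 was 0.64 ± 0.29 (edgeR adjusted p = 0.106), and 0.64 without day 21 replicate 2, where it was called (adjusted p = 0.000675). At day 21 it was 0.59 ± 0.29 against day 0 (adjusted p = 0.162), and 0.11 without replicate 2 (adjusted p = 0.508). Without day 21 replicate 3, S100a1 was called at day 21 (0.85, adjusted p = 0.0295) and at day 3. The ratio of S100b to S100a1 was 4.97 to 5.40 at day 0, 2.32 to 2.6 at day 3 and 4.06 to 4.87 at day 21. The 3 groups of ratios did not overlap. With the M21 lengths the ratios were 2.75 to 2.99, 1.28 to 1.44 and 2.25 to 2.69. Against day 3, the day 21 value was -0.05 ± 0.29 (adjusted p = 0.929), and -0.53 without replicate 2 (adjusted p = 0.00612).

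Markers of skeletal muscle, 9 genes, summed to 17.4 to 23.1 FPKM at day 0, 7.85 to 8.17 at day 3 and 142 to 278 at day 21. S100a1 was higher at day 3, where this sum was lowest. The sum of 12 cord neuron markers was 2227 to 2295 at day 0, 896 to 899 at day 3 and 1472 to 1496 at day 21.

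S100a13, which takes part in the release of FGF1 and of interleukin 1 alpha, starts beside S100a1. It measured 44.3, 31.6 and 30.0 FPKM at day 0, 88.3, 82.8 and 78.3 at day 3, and 42.2, 106 and 26.6 at day 21. Day 3 lay wholly above day 0, and day 21 ran from below day 0 to above day 3. The log2 fold change at day 3 was 1.19 ± 0.41 (edgeR adjusted p = 0.043). This call was lost in 7 of 20 other settings, among them the removal of any 1 library of day 0 or of day 3, with log2 fold changes of 1.09 to 1.35 over all 20. At day 21 the value was 0.59 ± 0.41 against day 0 (adjusted p = 0.321), and -0.15 without replicate 2 (adjusted p = 0.606). Against day 3 it was -0.60 ± 0.41 (adjusted p = 0.319), and -1.33 without replicate 2 (adjusted p = 0.0013).

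S100a16, a broadly expressed member, measured 13.1, 9.59 and 7.95 FPKM at day 0, 16.2, 16.6 and 16.7 at day 3, and 10.8, 17.9 and 9.94 at day 21. Day 3 was above day 0 in every library, and day 21 overlapped both. The log2 fold change at day 3 was 0.65 ± 0.23 (edgeR adjusted p = 0.045). The call was lost in 7 of 20 other settings, which included leaving out day 0 replicate 2 or 3, any day 3 library or day 21 replicate 1, with values of 0.51 to 0.83 over all 20. At day 21 it was 0.21 ± 0.23 against day 0 (adjusted p = 0.54) and -0.44 ± 0.23 against day 3 (adjusted p = 0.189). Without replicate 2 these were -0.09 (adjusted p = 0.685) and -0.73 (adjusted p = 0.00505).

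S100a10 does not bind calcium and sits in a complex with annexin A2 that brings channels and plasminogen to the cell surface. It measured 20.8, 16.7 and 15.0 FPKM at day 0, 71.1, 67.1 and 70.0 at day 3, and 27.4, 68.0 and 30.7 at day 21. Day 0 lay below every other library, and day 21 replicate 2 fell among the day 3 values. It rose by 1.94 ± 0.31 in log2 at day 3 (edgeR adjusted p = 0.000786) and by 1.13 ± 0.30 at day 21 (adjusted p = 0.0209). The day 21 value was 0.62 without replicate 2, still called (adjusted p = 0.00141). It was not called when day 0 replicate 2 or 3 was left out or when only day 0 and day 21 were fitted, with adjusted p up to 0.08. Between day 3 and day 21 the change was -0.81 ± 0.30 (adjusted p = 0.0734), and -1.31 without replicate 2 (adjusted p = 1.53e-05).

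S100a11, a partner of annexin A1 in membrane repair and growth control, had the largest fold change of the 10 at day 3. It measured 6.76, 10.4 and 7.55 FPKM at day 0, 237, 222 and 222 at day 3, and 48.1, 117 and 57.3 at day 21. The 3 groups did not overlap, with day 3 highest and day 0 lowest. It rose by 4.74 ± 0.35 in log2 at day 3, which is 26.6-fold (edgeR adjusted p = 7.25e-06), and by 3.04 ± 0.33 at day 21 (adjusted p = 0.00021). From day 3 to day 21 it fell by 1.70 ± 0.30 in log2 (adjusted p = 0.00362), with values of -2.18 to -1.47 and a call in all 20 other settings. Without replicate 2 the day 21 values were 2.58 against day 0 (adjusted p = 2.5e-06) and -2.16 against day 3 (adjusted p = 6.16e-06). The pseudogene S100a11-ps on chromosome 12 was listed at 0 counts in all 9 libraries, and reads shared between it and S100a11 could not be checked.

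S100a6, or calcyclin, marks proliferating cells and binds Cacybp. It measured 9.08, 3.22 and 3.85 FPKM at day 0, 58.7, 58.1 and 58.7 at day 3, and 19.3, 62.3 and 19.1 at day 21. All day 0 libraries were lowest, and day 21 replicate 2 exceeded day 3 while the other 2 stayed well below it. The spread at day 3 was 0.605% of the mean (coefficient of variation), against 59.7% at day 0 and 74.1% at day 21. The day 3 value came from 1824, 2011 and 1691 counts and is smaller than counting error alone would usually give. It therefore cannot be read as variation between animals. It rose by 3.39 ± 0.53 in log2 at day 3 (edgeR adjusted p = 0.000787) and by 2.50 ± 0.52 at day 21 (adjusted p = 0.00675), and the latter was 1.71 without replicate 2 (adjusted p = 0.0116). Without day 0 replicate 1 the values were 3.96 and 3.11. Between both injured groups the value was -0.89 ± 0.49 (adjusted p = 0.212), and -1.66 without replicate 2 (adjusted p = 0.0132).

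S100a4, which binds non-muscle myosin and is used as a marker of fibroblasts and of some macrophages, measured 3.24, 2.05 and 1.57 FPKM at day 0. It stood at 60.1, 63.3 and 45.0 at day 3 and at 20.7, 50.5 and 13.8 at day 21. Day 0 lay far below both, and day 21 replicate 2 lay within the day 3 range. It rose by 4.54 ± 0.50 in log2 at day 3, or 23.3-fold (edgeR adjusted p = 8.68e-05), and by 3.47 ± 0.49 at day 21 (adjusted p = 0.000911), 2.77 without replicate 2 (adjusted p = 0.000152). The step from day 3 to day 21 was -1.07 ± 0.42 (adjusted p = 0.088), and -1.76 without replicate 2 (adjusted p = 0.000802). Of the exon bases of S100a4, 51.7% are shared with the predicted gene Gm42674 on the same strand, so its counts are uncertain. Gm42674 itself was listed at 4 counts in 1 library and 0 in the rest.

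S100a4, S100a6, S100a10 and S100a11 rose at both days, and the marker sums of several cell types rose too. The 11 monocyte and macrophage markers summed to 22 to 24 FPKM at day 0, 633 to 640 at day 3 and 454 to 675 at day 21, and all 11 rose at both days. Most of that sum at day 3 was Lyz2, at a mean of 469 FPKM. The 13 fibroblast markers summed to 56.8 to 63.3, 672 to 676 and 340 to 431, and 12 rose at day 3 and 13 at day 21. Over all genes tested, 24.8% rose at day 3 and 17.9% at day 21. The monocyte and macrophage sum and the fibroblast sum were highest within day 21 in replicate 2. The 9 microglia markers summed to 93.1 to 112, 313 to 343 and 294 to 357. The 9 endothelial markers summed to 93.2 to 104, 262 to 272 and 92.9 to 113, and 7 of them rose at day 3. The Schwann cell sum, given above, was also highest at day 3. The part of these cells in the S100 values was not tested.

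S100a8 and S100a9 form calprotectin, which binds zinc and manganese as well as calcium. S100a8 measured 1.35, 0.58 and 0.346 FPKM at day 0, from 32, 9 and 6 counts. It stood at 5.37, 5.67 and 5.65 at day 3 and at 4.26, 15.4 and 4.62 at day 21. Day 0 was lowest throughout, and the 2 other day 21 libraries lay just under day 3. It rose by 2.75 ± 0.59 in log2 at day 3 (edgeR adjusted p = 0.00477) and by 3.20 ± 0.59 at day 21 (adjusted p = 0.00381), and the latter was 2.34 without replicate 2 (adjusted p = 0.000524). Without day 0 replicate 1 the values were 3.49 and 3.99. Day 21 against day 3 gave 0.46 ± 0.50 (adjusted p = 0.545), and -0.38 without replicate 2 (adjusted p = 0.319).

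S100a9 measured 7.09, 3.83 and 3.82 FPKM at day 0, 20.7, 18.6 and 13.9 at day 3, and 21.9, 38.3 and 13.1 at day 21. Day 3 and day 21 overlapped and both lay above day 0. It rose by 1.79 ± 0.39 in log2 at day 3 (edgeR adjusted p = 0.00506) and by 2.17 ± 0.39 at day 21 (adjusted p = 0.0035), with 1.70 for the latter without replicate 2 (adjusted p = 0.00288). The step from day 3 to day 21 was 0.38 ± 0.37 (adjusted p = 0.489), and -0.08 without replicate 2 (adjusted p = 0.851). The ratio of S100a9 to S100a8 in FPKM was 5.24 to 11 at day 0, 2.46 to 3.86 at day 3 and 2.48 to 5.14 at day 21. With the M21 lengths it was 5.15 to 10.9, 2.42 to 3.80 and 2.44 to 5.06.

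The 14 neutrophil markers summed to 7.31 to 9.66 FPKM at day 0, 35.5 to 36.0 at day 3, and 42.3, 65.1 and 42.2 in the day 21 libraries. The highest neutrophil sum and the highest S100a8 and S100a9 thus fell in the same library, day 21 replicate 2. Sums of monocyte and macrophage, ependymal and skeletal muscle markers were also highest in that library. Of 11 neutrophil markers tested, 9 rose at day 3 and 10 at day 21, where 24.8% and 17.9% of all genes rose. From day 3 to day 21, 2 rose (Camp and Ltf) and 2 fell (Mmp8 and Il1r2), against 11.7% and 16.1% of all genes. Ly6g, the surface marker that defines mouse neutrophils, stayed at 0.0652 to 0.222 FPKM at day 0, 0.0973 to 0.368 at day 3 and 0.249 to 0.431 at day 21, too low to be tested. Stfa2l1, also not tested, was at 0 in all day 0 libraries and at means of 0.737 FPKM at day 3 and 0.106 at day 21. Epidermal markers, 8 genes of a tissue that also makes both proteins, summed to 7.44 to 9.94, 8.82 to 9.59 and 6.18 to 16.6, with day 21 replicate 2 highest. The part of each cell type was not tested.

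**Figure D4:**
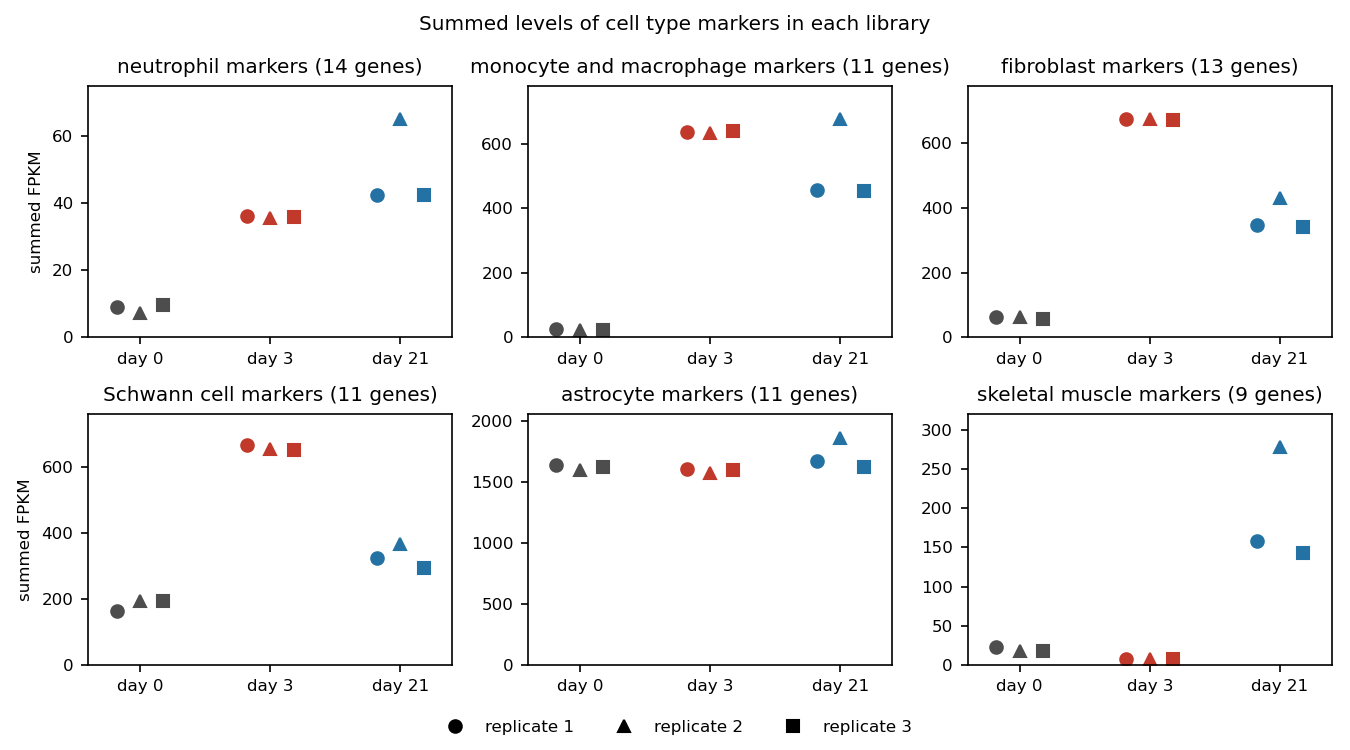
Summed FPKM of 6 cell type marker lists (vertical) at day 0, day 3 and day 21, with a shape per replicate. Monocyte and macrophage, fibroblast and Schwann cell sums are highest or nearly so at day 3, skeletal muscle at day 21 (142 to 278), and astrocyte sums stay between 1578 and 1860.

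Along chromosome 3, S100a1 to S100a9 cover 184.688 kb, which holds 13 genes of the table, 12 of them S100 genes and the other Gm42674. The log2 fold changes at day 3 in chromosome order were 0.64 (S100a1), 1.19 (S100a13), 0.65 (S100a16), 4.54 (S100a4), 3.39 (S100a6), 2.75 (S100a8) and 1.79 (S100a9). The 3 of these members with the smallest changes thus stood side by side at one end. Small changes also occurred further along among tested S100 genes that are not members. S100a3, between S100a16 and S100a4, was at 0.71, and S100a7a, between S100a6 and S100a8, at 0.37, neither called. S100a11 at 4.74 and S100a10 at 1.94 lie beyond a gap, and the pair together span 44.2 kb. The 82 genes in that gap, between S100a9 and S100a11, span 2745 kb from first to last. Of them, 58 had no counts and 5 were tested. Among these 5 was Sprr1a, a small proline-rich protein known from regenerating neurons, at 0.228, 126 and 60.0 mean FPKM at day 0, day 3 and day 21.

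**Figure D5:**
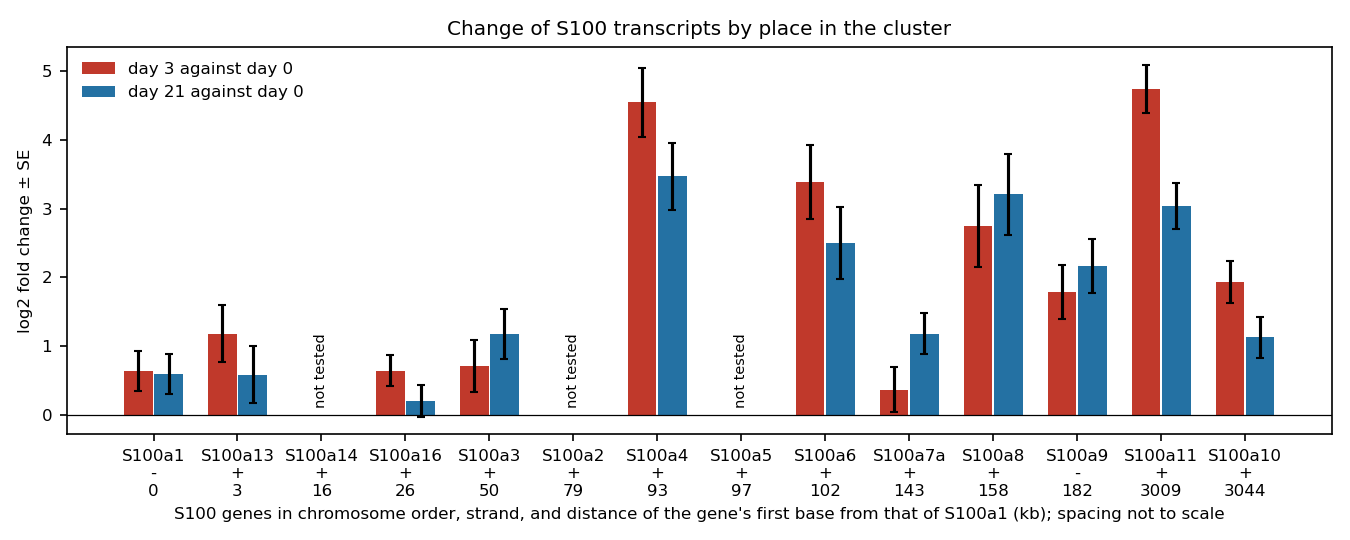
Log2 fold change ± SE (bars with whiskers) of S100 genes of chromosome 3 at day 3 and day 21 against day 0, in chromosome order with strand and distance in kb; spacing is not to scale. S100a4 at 4.54 and S100a11 at 4.74 are the tallest day 3 bars, and S100a14, S100a2 and S100a5 were not tested.

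Across the 9 libraries the log2 CPM of the members on chromosome 3 moved together. Pearson r of the 36 pairs among these 9 genes ran from 0.668 (S100a9 and S100a16) to 0.981 (S100a4 and S100a6). S100a4 and S100a11 had r = 0.972, S100a8 and S100a9 0.965, and the neighbours S100a1 and S100a13 0.936. S100b had r of -0.291 (S100a11) to 0.363 (S100a1) with the other 9. Over the 8 libraries left without day 21 replicate 2, the 36 pairs ran from 0.600 to 0.980, but S100b had r of -0.915 (S100a11) to -0.577 (S100a9), so its weak values above rested on that library. These values describe libraries that share the 3 days, and are given without a test.

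The genes most like a member by r over the 9 libraries, other S100 genes left out, were as follows. For S100a8 they were Psmb8 (0.985), Casp1 (0.982) and Tra2b (0.981). For S100a6 they were Dhrs1 (0.995), Copz2 (0.993) and Nxn (0.993). For S100a1 they were 1810009A15Rik (0.991), Rpl30 (0.988) and Bri3 (0.981). For S100b they were Ppp2r3c (0.988), Acot13 (0.984) and Trappc6b (0.975). Each of these 12 genes, like the members, was highest among the day 21 libraries in replicate 2. Without that library the 12 values of r were 0.952 to 0.997.

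Of the 7 other S100 genes in the table, 2 were tested. S100a3 measured 0.0558 to 0.0713 FPKM at day 0, 0.0873 to 0.125 at day 3 and 0.0892 to 0.222 at day 21, from 114 counts in all. It was higher at day 21 than at day 0 by 1.18 in log2 (edgeR adjusted p = 0.0388), a call lost in 16 of 19 other settings, among them the removal of any library of day 0 or day 3 or of day 21 replicate 2 or 3. Without day 21 replicate 2 it was 0.88 (adjusted p = 0.0952). S100a7a, the mouse psoriasin gene, measured 0.260 to 0.399, 0.367 to 0.523 and 0.694 to 0.929 FPKM, from 99 counts. It was higher at day 21 by 1.18 (adjusted p = 0.017), and by 1.17 without replicate 2 (adjusted p = 0.0255), with the call lost without day 0 replicate 1 (adjusted p = 0.0592), without day 21 replicate 3, without both apart libraries and with DESeq2. S100a14 had 17 counts in all libraries together, S100a2 3 and S100z 1, and S100a5 and S100g were listed at 0. In a single library 0 counts allow up to 0.125 to 0.210 CPM (3 counts of the total, counting error only). Of 6 fused-type S100 genes, which carry the same calcium loops in large epidermal proteins, 1 was tested, Tchh, and it was not called at day 3 (-0.38 in log2) or day 21 (-0.21), though it was lower at day 3 without day 21 replicate 2.

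Of 12 receptors and coreceptors of released S100 proteins, 7 rose and 1 fell at day 3, with a median log2 fold change of 1.02. Over all genes tested, 24.8% rose and 19.5% fell. At day 21, 7 rose and none fell, with a median of 0.91, against 17.9% and 11.3% of all genes. From day 3 to day 21, 1 rose and 5 fell, against 11.7% and 16.1%. Without day 21 replicate 2 the counts were 7 higher and 3 lower, 7 and 2, and 2 and 6 in these comparisons. The shares of all genes were then 32% and 29.2%, 25.1% and 22.4%, and 23.5% and 25.7%. Bsg, the highest of the 12 at day 0 with a mean of 111 FPKM, was not called at day 3 (0.12, edgeR adjusted p = 0.558). At day 21 Bsg was at -0.08 (adjusted p = 0.735), and it was called lower without day 21 replicate 2 (-0.29, adjusted p = 0.011). Ager, which encodes RAGE, measured 0.0966 to 0.207 FPKM at day 0, 0.2 to 0.333 at day 3 and 0.336 to 0.672 at day 21. It was not called at day 3 (0.81, edgeR adjusted p = 0.133) and was higher at day 21 (1.40, adjusted p = 0.0262), a call lost without day 0 replicate 1 or 2, without both libraries that stood apart and when only day 0 and day 21 were fitted. These values were 0.82 (adjusted p = 0.0508) and 1.02 (adjusted p = 0.0395) without day 21 replicate 2.

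Tlr4, a receptor of calprotectin, measured 0.0246, 0.113 and 0.0252 FPKM at day 0, 0.781, 1.03 and 0.139 at day 3 and 0.516, 0.244 and 0.517 at day 21. It rose by 3.62 ± 0.82 in log2 at day 3 (edgeR adjusted p = 0.00625) and by 2.93 ± 0.84 at day 21 (adjusted p = 0.0289). The day 3 call was lost with voom sample weights and without day 0 replicate 1 and day 21 replicate 2 together, with an adjusted p up to 0.0921. The day 21 call was lost in these settings, with log2(FPKM + 1), and without day 0 replicate 1 or 3 or day 21 replicate 1 or 3. The values were 3.64 and 3.24 without day 21 replicate 2 alone, both called. Its coreceptor Cd14 rose by 3.52 at day 3 and 2.36 at day 21. Cd36, a scavenger receptor that binds calprotectin with fatty acids, rose by 5.52 and 2.92, and the syndecan Sdc1 by 3.78 and 1.33. All 3 fell from day 3 to day 21, by 1.16 (Cd14), 2.6 (Cd36) and 2.45 (Sdc1). The syndecan Sdc4 rose by 1.22 and 0.49, and its day 21 call was lost without day 0 replicate 2 or 3. All 4 were called at day 21 without replicate 2, at 2.13 (Cd14), 2.88 (Cd36), 1.25 (Sdc1) and 0.39 (Sdc4).

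Among 29 tested binding partners of the family, 18 rose and 6 fell at day 3 (median 0.92), where 24.8% of all genes rose and 19.5% fell. At day 21, 16 rose and 4 fell (median 0.57), against 17.9% and 11.3%. From day 3 to day 21, 2 rose and 10 fell, against 11.7% and 16.1%. Without day 21 replicate 2 the counts were 19 higher and 7 lower, 20 and 5, and 9 and 14. The shares of all genes were then 32% and 29.2%, 25.1% and 22.4%, and 23.5% and 25.7%. Anxa2 and Ahnak, partners of S100a10, and Anxa1, the partner of S100a11, rose at both days. Other partners of S100a10 went both ways. Kcnk3, Asic1, Htr1b and Htr4 fell, as given below, while Scn10a rose by 10.4 at day 3 and 7.68 at day 21. Anxa2 went from 14.4 to 18 FPKM at day 0 to 110 to 114 at day 3 and 30.1 to 50.1 at day 21, with log2 fold changes of 2.77 and 1.09 (edgeR adjusted p = 4.28e-06 and 0.00219). Ahnak, the large scaffold held by S100a10 and annexin A2, rose by 2.63 and 1.62. Anxa1 rose by 4.29 and 2.97. All 3 fell again from day 3 to day 21, by 1.68 (Anxa2), 1.01 (Ahnak) and 1.32 (Anxa1), and the Ahnak fall was not called when any day 3 library was left out. Leaving out day 21 replicate 2 gave day 21 values against day 0 of 0.83 (Anxa2), 1.92 (Ahnak) and 2.85 (Anxa1), and against day 3 of -1.94, -0.70 and -1.43, all called.

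The channels Kcnk3 and Asic1, which S100a10 helps to bring to the membrane, fell at both days. Kcnk3 fell by 1.12 in log2 at day 3 (edgeR adjusted p = 6.1e-05) and by 0.86 at day 21 (adjusted p = 0.00072). Asic1 fell by 1.19 (adjusted p = 9.4e-06) and by 0.80 (adjusted p = 0.00027). Both were called at both days without day 21 replicate 2, at -0.81 (Kcnk3) and -0.77 (Asic1) at day 21. The serotonin receptors Htr1b and Htr4, also partners of S100a10, fell at day 3 by 1.25 and 1.29 (adjusted p = 0.0037 and 0.014) and were not called at day 21 (adjusted p = 0.182 and 0.096). The Htr4 fall at day 3 was lost without day 3 replicate 1 (adjusted p = 0.0518). At day 21 Htr1b was called lower with voom sample weights and Htr4 without day 21 replicate 1. Bsg and these 4 genes were named after their values were seen.

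Myh9, the myosin heavy chain bound by S100a4, rose by 2.06 in log2 at day 3 and was at 0.43 at day 21 (edgeR adjusted p = 0.106), with a call at day 21 without replicate 2. Cacybp, bound by S100a6, was at -0.13 at day 3 (adjusted p = 0.57) and rose by 0.55 at day 21 (adjusted p = 0.0363), a call lost on leaving out any single library of day 0 or day 3, or day 21 replicate 1. Fgf1, released with S100a13, fell by 0.69 at day 3 and by 0.47 at day 21, the latter not called without day 0 replicate 2 or 3. The subunits of the phagocyte NADPH oxidase to which calprotectin delivers fatty acid rose at both days, Cybb by 4.25 and 4.78 and Cyba by 3.67 and 3.22. Il1a rose by 2.52 and 3.08 from 0 to 0.337 FPKM at day 0. Leaving out replicate 2 gave day 21 values of 4.93 (Cybb), 2.77 (Cyba), 3.06 (Il1a), 0.34 (Cacybp), 0.63 (Myh9) and -0.38 (Fgf1), all called. Scn10a, the sodium channel carried by S100a10, was at 0 to 0.00989 FPKM at day 0, 8.77 to 9.37 at day 3 and 1.2 to 1.73 at day 21. Scn10a is a gene of peripheral sensory neurons, whose 10 markers summed to 56.7 to 67.4 FPKM at day 0, 121 to 124 at day 3 and 59.3 to 99.9 at day 21, with 1 marker at 0 in all day 0 libraries. Most of the day 0 sum came from Prph and Calca, at means of 47.5 and 11.5 FPKM, and neither was called at day 3 or day 21. Of the 10 markers, 8 rose at day 3 and 6 at day 21, where 24.8% and 17.9% of all genes rose.

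Among 33 tested EF-hand proteins outside the S100 family, 8 rose and 20 fell at day 3, where 24.8% of all genes rose and 19.5% fell, with a median log2 fold change of -0.53. At day 21, 8 rose and 11 fell (median -0.23), where 17.9% and 11.3% of all genes did. From day 3 to day 21, 12 rose and 5 fell (median 0.24), against 11.7% and 16.1%. Without day 21 replicate 2 the counts were 8 higher and 22 lower, 10 and 16, and 17 and 5. The shares of all genes were then 32% and 29.2%, 25.1% and 22.4%, and 23.5% and 25.7%. Of the 12 cord neuron markers all 12 fell at day 3, with a median of -1.39, and 9 fell at day 21, and their part in these counts was not tested. The largest day 3 falls among those at 1 FPKM or more were those of Kcnip1, a potassium channel subunit of neurons, at -1.42, and of calbindin (Calb1) at -1.40. Kcnip1 and Calb1 were not called at day 21, except Kcnip1 without day 3 replicate 3. Rcn3, a protein of the endoplasmic reticulum in collagen-making cells, rose by 2.85 at day 3 and 2.08 at day 21. Aif1, the macrophage and microglia protein Iba1, rose by 1.97 and 2.70. The day 21 values were 1.74 (Rcn3) and 2.01 (Aif1) without replicate 2, both called.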

How the data were processed

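Poly-A RNA of 9 spinal cord libraries was sequenced as paired-end TruSeq libraries, per the labels' protocols. HISAT2 and StringTie, with no version, appear in the submitters' processing notes beside GRCh38, a human build, while the deposited positions are those of mouse build GRCm38. No source used here states how strand was handled. The authors deposited 1 whole-number read count and 1 FPKM value per gene and library. The deposited FPKM equal count over gene length and library total within 0.00117% (12001 genes, none under 50 counts in any library).

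Counts were fitted with edgeR 4.0.16 in R 4.3.3 (TMM, filterByExpr, robust quasi-likelihood test, all 9 libraries in 1 fit, 6 residual degrees of freedom), with Benjamini-Hochberg adjustment over 16494 genes and calls at an adjusted p under 0.05, two-sided. The common biological coefficient of variation was 0.205. SE is the log2 fold change over the square root of F. The script was tested on simulated data. No libraries were duplicates. The alternatives were median-of-ratios (RLE) scaling, no filter, 1 CPM in 3 libraries, limma 3.58.1 on log2(FPKM + 1) and log2(FPKM + 0.1), voom with sample weights, DESeq2 1.42.0, 2 groups only, TPM, a replicate block and single libraries left out in turn. A length correction, both apart libraries left out together and M21 lengths were added after seeing the data. The members and lists were chosen with earlier results of these data known. Named genes are all members, other S100 genes with counts, up to 4 called genes per related list with the largest change and at least 1 FPKM, textbook partners, marker sums and the 3 genes most like S100a8, S100a6, S100a1 and S100b. Sequences are from RefSeq (GRCm38.p6), and 9 of 10 members matched.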

Additional observations from a re-analysis of the deposited data

Results flagged for a closer look

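S100a11 changed by -1.70 in log2 from day 3 to day 21 (edgeR adjusted p = 0.00362), and this direct test between both days means that its rise over day 0 differed between them. It stood at 222 to 237 FPKM in 3 of 3 day 3 libraries and at 48.1 to 117 in 3 of 3 day 21 libraries.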

How the results depend on the processing

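Of 600 comparisons of the 30 member changes with 20 other settings, 529 kept direction and side of the threshold, 42 were newly called, 17 lost their call and 12 changed direction. With a replicate block the members called lower from day 3 to day 21 were 2 in place of 1 (S100a4 added), and no other member call changed. Libraries with the same number correlated at -0.146 to 0.107 over 9 pairs and others at -0.218 to 0.227, so the numbers were not taken as pairs.

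Members called higher from day 3 to day 21 were 1 with DESeq2, voom and the length correction, and 0 to 1 over the fits that left out libraries. Members called lower were 3 with DESeq2, 4 with the length correction, 7 with voom, and 1 to 7 with libraries left out. At day 3, 1 member fell with the length correction, voom and 2 groups only, and 0 to 1 with libraries left out. Over all genes, voom called 5215 lower at day 3 (2361 to 4976 with libraries left out) and 3946 lower at day 21 (1011 to 3920), where log2(FPKM + 0.1) gave 1107, log2(FPKM + 1) 1172 and 2 groups only 801. From day 3 to day 21 voom called 4419 higher (1006 to 4570) and 4832 lower (1887 to 4802). The cause was not tested.

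Direction changed at day 21 against day 0 for S100b with voom (-0.031), and with libraries left out the values were -0.14 to 0.48 for S100b, -0.15 to 0.93 for S100a13 and -0.087 to 0.42 for S100a16. At day 21 against day 3 it changed for S100a8 with voom (-0.36), and with libraries left out values were -0.38 to 0.76 for S100a8, -0.077 to 0.67 for S100a9 and -0.53 to 0.21 for S100a1. Calb1 at day 21 was 0.024 and 0.028 with log2(FPKM + 1) and log2(FPKM + 0.1), Bsg at day 21 was 0.017 with both log2(FPKM) fits and -0.29 to 0.053 with libraries left out, and S100a3 from day 3 to day 21 was -0.00045 with voom. TPM levels were 2.74 to 3.31 times FPKM and keep the order of members within a library. With 3 libraries a group and 6 to 32 counts, S100a8 at day 0 was the least precise member.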
